A study of Mus musculus with 3 samples.

Results

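T-box transcription factors are DNA-binding proteins that share the T-box domain and direct the patterning of mesoderm, heart, limb and other organs in the embryo, and a few act in lymphocytes. Many genes of this kind start in CpG-rich DNA that normal tissue keeps free of methylation. In cancers, CpG-rich starts of developmental genes are a frequent place of methylation gain.

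The 10 genes described here, of 20665 protein-coding genes, are Tbx1, Tbx2, Tbx3, Tbx4, Tbx5, Tbx15, Tbx18, Tbx20, Tbx21 and Eomes. Each was taken as its mm10 span with 5 kb to each side, which gave 2375 of the 12313737 bins of 200 bp in the deposited table. All 10 genes lie on chromosomes 1 to 19, the chromosomes analysed. Tbx2 and Tbx4 are neighbours on chromosome 11, 44.4 kb apart, and Tbx3 and Tbx5 are neighbours on chromosome 5, 112 kb apart, so these members are not independent of each other in position.

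The assay was MBD-seq. Fragments of genomic DNA are caught on beads that carry a polypeptide with affinity for methylated CpGs, and the caught fragments are sequenced. The organoids came from the first 2.5 cm of the colon of male mice aged about 40 days, all heterozygous for a Braf V600E allele that stays silent until Cre recombinase acts (Braf+/LSL). The library of Braf organoids in Base medium came from cells that had received Cre by lentivirus and were then selected to grow without stem-cell niche factors. The library of Braf organoids in full medium came from cells that had received Cre and stayed in medium with Wnt3a, R-Spondin, Noggin and EGF. The EV library came from cells that had received the lentiviral backbone alone and stayed in full medium, so they carried the silent allele. All 3 cultures ran for 5 months and then 3 weeks more, and their titles share the line name BRAF3. Each group was 1 library. No difference below has a replicate check, no p-value is given, and every interval covers counting error only. In such bulk DNA, methylation in more cells and more methylation per cell cannot be told apart.

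Values are normalised coverage per bin, that is, the read overlaps of a bin times what 1 overlap is worth in that library, recovered from the deposited log2 values. The whole numbers of read overlaps behind them totalled 14850571 in Braf Base medium, 20914446 in Braf full medium and 12530155 in EV, which stand for an estimated 5985362 reads in Braf Base medium, 8648828 in Braf full medium and 5041726 in EV. Mean coverage per bin was 0.0447 in Braf Base medium, 0.0832 in Braf full medium and 0.0511 in EV. The Braf full medium library had a raised background, with a level between enriched regions of 0.0476, against 0.00697 in EV, while Braf Base medium stood at 0.00685. A coverage close to 0.0476 in Braf full medium is thus at that library's background.

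Coverage was compared in windows reaching 1 kb to each side of the gene start. RefSeq starts with a strand were at hand for 6 members (Tbx1 with 2 starts, and Tbx4, Tbx18, Tbx20, Tbx21 and Eomes). For Tbx2, Tbx3, Tbx5 and Tbx15 both gene ends were read, called low and high by coordinate. To be called, a window needed 0.119 or more in the higher library. It then counted as gained at a log2 ratio of 1 or above and as lost at -1 or below, after a pseudocount of 0.0597 had been added to each coverage. A gene was called if any of its windows was. The pseudocount draws log2 ratios of low windows towards 0. Folds carry no pseudocount. The whole gene windows were also cut into 484 tiles of 1 kb and called by the same rule.

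Braf organoids in Base medium had more methylated DNA than EV organoids at the starts or ends of 5 of the 10 genes, Tbx1, Tbx2, Tbx15, Tbx18 and Tbx20, and none was called lost. By the same rule 6.22% of 20665 protein-coding genes gained and 1.88% lost. Braf organoids in full medium also had 5 genes gained over EV, Tbx1, Tbx2, Tbx15, Tbx20 and Eomes, and none lost, against 7.82% and 0.886% of all genes. Between the Braf libraries, Tbx2, Tbx15 and Tbx18 were gained in Base medium and Eomes was lost, against 2.24% and 4.35% of all genes. These comparisons share libraries in pairs, so their counts do not support each other.

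**Figure D1:**
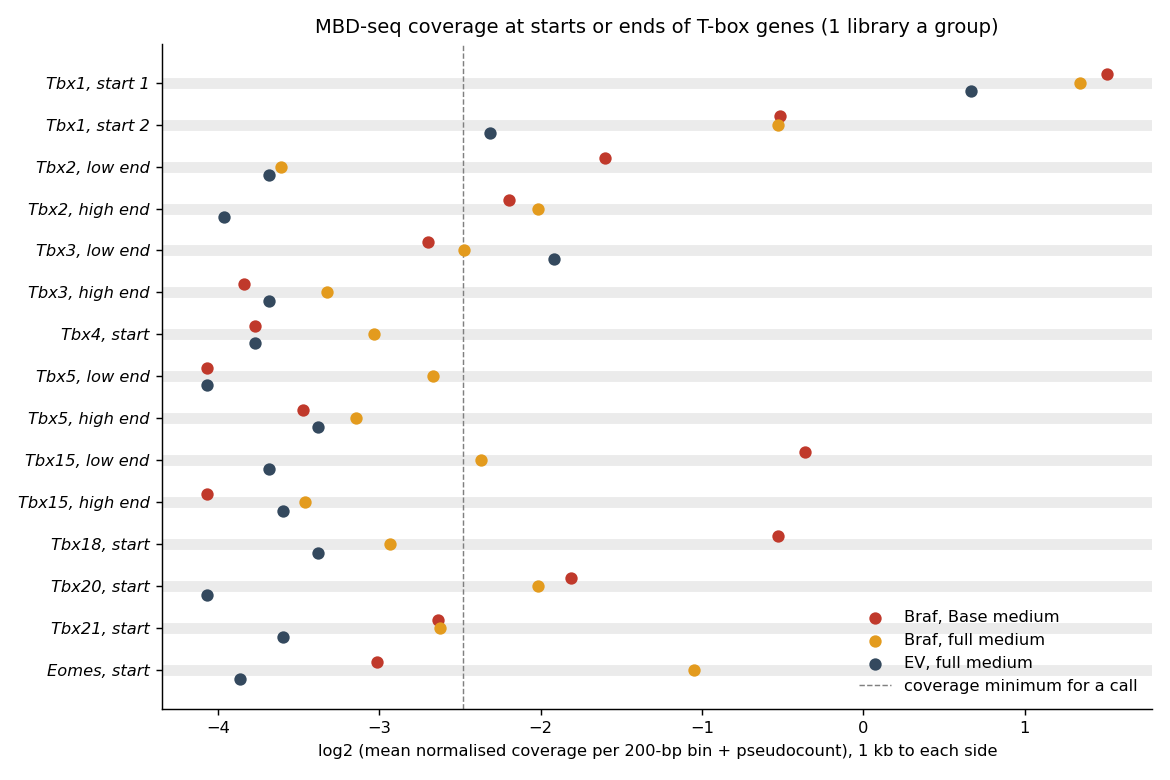
Mean normalised coverage (log2, with the pseudocount added) in the 15 start or end windows of the 10 T-box genes, 1 point for each library, with the coverage minimum for a call as a dashed line. The low ends of Tbx15 and Tbx2 and the Tbx18 start stand highest in Braf Base medium by a wide gap, and Eomes in Braf full medium. At Tbx1 and Tbx20 Braf Base medium and Braf full medium lie close together above EV.

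The sequences around 4 of these starts are shown because the coverage lay in a different place relative to each. They run 5′ to 3′ on the strand of the gene, from 250 bases before the start to 50 after it, are taken from RefSeq (GRCm38.p6), and have every CpG, the dinucleotide that is methylated, in capitals.
Tbx20, chr9:24774254-24774553, reverse strand: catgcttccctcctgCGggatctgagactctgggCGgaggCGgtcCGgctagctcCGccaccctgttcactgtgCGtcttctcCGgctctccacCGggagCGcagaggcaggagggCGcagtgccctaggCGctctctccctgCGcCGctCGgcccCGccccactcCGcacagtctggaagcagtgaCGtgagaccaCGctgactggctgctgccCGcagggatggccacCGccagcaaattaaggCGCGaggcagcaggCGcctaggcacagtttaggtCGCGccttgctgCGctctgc
Tbx18, chr9:87731211-87731510, reverse strand: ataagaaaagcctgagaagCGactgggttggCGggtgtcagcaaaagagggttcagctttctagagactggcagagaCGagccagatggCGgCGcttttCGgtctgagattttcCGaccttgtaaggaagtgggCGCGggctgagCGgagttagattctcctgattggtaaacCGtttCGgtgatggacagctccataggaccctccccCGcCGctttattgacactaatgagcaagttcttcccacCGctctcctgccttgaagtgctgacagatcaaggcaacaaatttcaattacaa
Tbx1 start 1, chr16:18588850-18589149, reverse strand: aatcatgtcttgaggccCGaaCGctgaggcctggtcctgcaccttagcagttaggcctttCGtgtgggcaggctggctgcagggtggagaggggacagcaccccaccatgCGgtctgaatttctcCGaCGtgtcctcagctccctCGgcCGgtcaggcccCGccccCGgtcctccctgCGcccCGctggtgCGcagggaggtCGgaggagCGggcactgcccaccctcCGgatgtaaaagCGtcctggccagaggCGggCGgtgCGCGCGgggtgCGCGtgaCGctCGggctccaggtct
Eomes, chr9:118477939-118478238, forward strand: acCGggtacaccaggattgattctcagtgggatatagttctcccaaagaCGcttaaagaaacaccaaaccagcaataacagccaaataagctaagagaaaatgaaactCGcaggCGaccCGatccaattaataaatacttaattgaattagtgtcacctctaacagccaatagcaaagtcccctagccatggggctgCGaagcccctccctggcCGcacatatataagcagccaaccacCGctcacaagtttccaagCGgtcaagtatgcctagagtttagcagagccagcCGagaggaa

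Tbx20 and Tbx1 start 1 hold 26 CpGs each, Tbx18 holds 15 and Eomes 10, and the median over 32851 RefSeq promoters of this length is 7. Of the members whose sequence is not printed, Tbx21 holds 21 CpGs, Tbx1 start 2 holds 16 and Tbx4 holds 8. Among the genes with a table start of at least 15 CpGs, 8.46% gained and 1.12% were lost in Braf Base medium over EV, 9.01% and 0.838% in Braf full medium over EV, and 3.29% and 3.66% in Braf Base medium over Braf full medium. Among genes read at both ends, as Tbx2, Tbx3, Tbx5 and Tbx15 were, 7.27% gained in Braf Base medium over EV and 9.2% in Braf full medium over EV. The Tbx20 sequence itself was covered, at 0.852 in Braf Base medium and 0.490 in Braf full medium, against 0 in EV. The Tbx18 sequence was nearly empty in all 3 libraries, at 0.0370 in Braf Base medium, 0.0490 in Braf full medium and 0 in EV. Tbx1 start 1 was heavily covered in all 3 libraries, at 7.35 in Braf Base medium, 6.47 in Braf full medium and 5.40 in EV. The Eomes sequence had 0 in Braf Base medium, 0.0327 in Braf full medium and 0 in EV.

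Tbx15, which patterns the skeleton and the coat in mice, had the largest log2 ratio of the 15 windows in Braf Base medium over EV, at 3.32. Its low end on chromosome 3 (gene span 99240348 to 99354260) had 0.717 in Braf Base medium, 0.134 in Braf full medium and 0.0183 in EV, from an estimated 86, 12 and 2 reads. Only the Braf Base medium library was high, and Braf full medium lay just over the minimum for a call. Braf Base medium was 39.3-fold above EV (95% interval 8.51 to 266) and 5.37-fold above Braf full medium. Braf full medium was 7.32-fold above EV (95% interval 1.27 to 52.4), and this call was lost under 6 of 7 other settings. Within the window the highest bin lay 0.752 kb above the low end, with 2.30 in Braf Base medium, 0.147 in Braf full medium and 0 in EV. A second block lay inside the gene, centred 16.2 and 17.2 kb above the low end. Its 2 tiles had 0.985 and 1.79 in Braf Base medium and 0.314 and 0.382 in Braf full medium, and no overlap in EV. The higher of these tiles was at least 23.9-fold above EV in Braf Base medium and at least 5.11-fold above EV in Braf full medium. In all, 7 of the 125 Tbx15 tiles gained in Braf Base medium over EV, 6 in Braf full medium over EV and 5 in Braf Base medium over Braf full medium. Over the whole 621 bins the mean was 0.0490 in Braf Base medium, 0.0490 in Braf full medium and 0.00695 in EV, and the ratio of Braf Base medium over Braf full medium had an interval of 0.846 to 1.18. The long noncoding RNA gene Gm46817 overlaps the low end window. The background within 1 Mb of Tbx15 was 1.23 times the genome-wide background in Braf Base medium, 1.02 times in Braf full medium and 0.833 times in EV. With that local background subtracted the low end still had 0.709 in Braf Base medium, 0.0843 in Braf full medium and 0.0124 in EV.

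Tbx18, a regulator of the ureter wall, the epicardium and the sinoatrial node, followed. Its start window on chromosome 9 had 0.633 in Braf Base medium, 0.0713 in Braf full medium and 0.0365 in EV, from an estimated 76, 7 and 3 reads. Again a single library was high, and Braf full medium did not pass the minimum. The fold of Braf Base medium was 17.3 over EV (95% interval 6.15 to 92.5) and 8.88 over Braf full medium (95% interval 3.90 to 21.7). The coverage began downstream of the nearly empty promoter printed above. Its highest bin, with 2.63 in Braf Base medium, 0.245 in Braf full medium and 0.100 in EV, lay 0.759 kb into the gene. The 2 gained tiles, at 0.585 and 1.63 in Braf Base medium, were the only called tiles of the 40 in the Tbx18 window. The whole window averaged 0.0636 in Braf Base medium, 0.0442 in Braf full medium and 0.00725 in EV.

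Tbx2, a repressor that holds back the cell cycle inhibitor gene Cdkn2a in other cells and patterns heart and limb, differed between the Braf libraries and EV in blocks below, within and above the gene. Its window on chromosome 11, gene span 85832615 to 85841948, averaged 0.256 in Braf Base medium, 0.181 in Braf full medium and 0.0124 in EV. That is 20.6-fold over EV in Braf Base medium (95% interval 10.7 to 42.0) and 14.6-fold in Braf full medium (95% interval 7.43 to 29.9). Both Braf libraries lay far above EV, in which no tile of the gene reached the coverage minimum. Of 20 tiles, 7 gained in Braf Base medium over EV and 8 in Braf full medium over EV, none being lost. The highest tile, centred 4.89 kb above the low end, had 1.98 in Braf Base medium, 0.725 in Braf full medium and 0.0502 in EV. The tile centred 0.885 kb above the low end was covered in 1 library only, with 0.570 in Braf Base medium, 0.0294 in Braf full medium and 0.0502 in EV. The tile centred 2.12 kb below the low end had 0.363 in Braf Base medium, 0.470 in Braf full medium and 0.0201 in EV, and the ratio of Braf Base medium over Braf full medium, 0.772, had an interval of 0.396 to 1.52. The low end window had 0.269 in Braf Base medium, 0.0223 in Braf full medium and 0.0183 in EV, so Braf Base medium was 14.8-fold above EV (95% interval 3.01 to 102) and 12.1-fold above Braf full medium (95% interval 3.17 to 107). The high end window had 0.158 in Braf Base medium, 0.187 in Braf full medium and 0.00456 in EV. Its folds over EV, 34.7 in Braf Base medium (95% interval 2.23 to 582) and 41.0 in Braf full medium (95% interval 2.53 to 675), rest on 1 overlap in EV.

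Tbx20, a factor of heart chamber development, had a narrow gain on the start itself. Its window on chromosome 9 had 0.226 in Braf Base medium and 0.187 in Braf full medium, an estimated 27 and 17 reads, and no overlap in EV. Both Braf libraries were thus above EV, by at least 6.63-fold in Base medium and at least 5.50-fold in full medium, and they differed from each other by 1.21-fold with an interval of 0.647 to 2.41. The highest values stood in 2 neighbouring bins, 0.198 kb upstream of the start and at the start, which overlap the CpG-rich sequence printed above. No other tile of the 65 in the Tbx20 window gained in Braf Base medium. In Braf full medium 2 more gained, at 0.127 and 0.137, close to the minimum for a call in the library with the raised background. The whole window averaged 0.0128 in Braf Base medium, 0.0441 in Braf full medium and 0.00584 in EV. Braf Base medium was 2.19-fold above EV over it (95% interval 1.18 to 4.18).

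**Figure D2:**
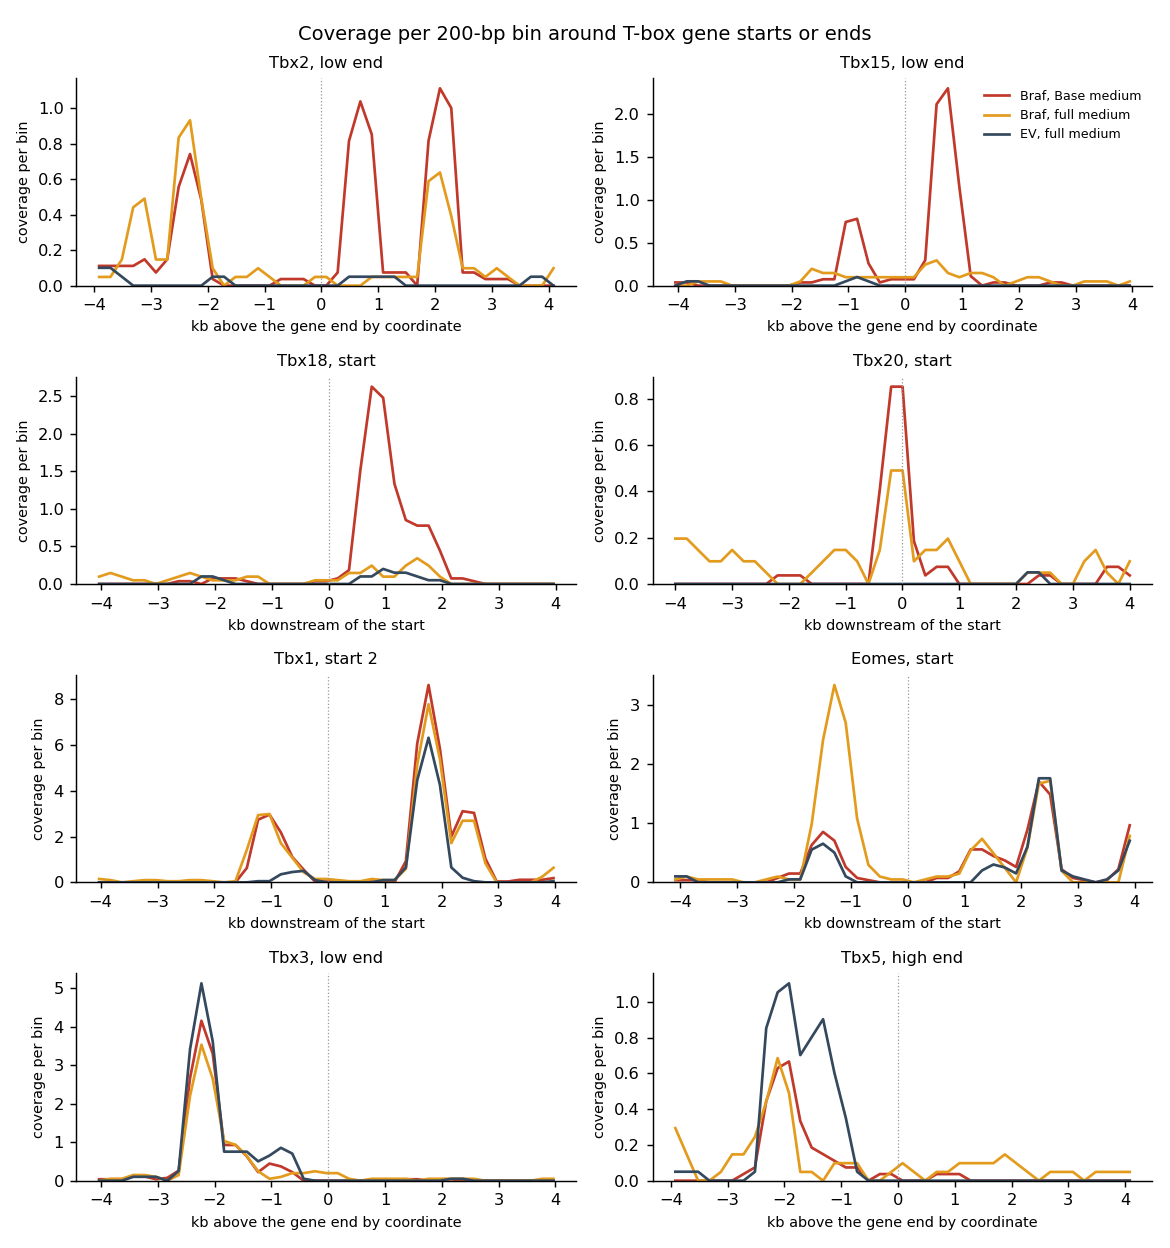
Normalised coverage per 200-bp bin (vertical axis) by distance from the gene start, or from a gene end by coordinate where no start was used (horizontal axis, kb), 1 line for each library. Braf Base medium alone peaks inside Tbx15 and Tbx18, Braf full medium has the highest peak upstream of Eomes, and EV is highest near the Tbx5 high end.

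Tbx1, the main gene of the deleted segment in human DiGeorge syndrome and a regulator of the pharyngeal arches, was methylated in all 3 libraries at its inner start and gained around it. The start 1 window had 2.79 in Braf Base medium, 2.47 in Braf full medium and 1.53 in EV. The ratio over EV was 1.83 in Braf Base medium and 1.62 in Braf full medium, both short of a call, with intervals of 1.49 to 2.24 in Braf Base medium and 1.30 to 2.02 in Braf full medium. The outer start, start 2, lies upstream, and its window shares bins with that of start 1. It had 0.640 in Braf Base medium, 0.633 in Braf full medium and 0.141 in EV, and both Braf libraries were called gained over EV, Braf Base medium at 4.52-fold (95% interval 2.56 to 9.55) and Braf full medium at 4.47-fold (95% interval 2.48 to 9.55). The gained tile upstream of start 2, which lies within the long noncoding RNA gene Gm35369, had 1.91 in Braf Base medium, 1.83 in Braf full medium and 0.281 in EV. With windows reaching 0.5 or 2 kb to each side start 2 was no longer called, since the narrow window misses the peak bins of that tile and the wide one takes in the peak shared by all 3 libraries. Towards the other end of the gene, the tile centred 1.52 kb above the low end had 1.46 in Braf Base medium, 1.33 in Braf full medium and 0.0201 in EV. Of 21 tiles, 7 gained in Braf Base medium over EV and 8 in Braf full medium over EV. None of the Tbx1 tiles was called higher in Braf Base medium than in Braf full medium, and 2 were called lower.

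Eomes, also called Tbr2, drives mesoderm and endoderm formation in the embryo and acts in T and NK cells. It was the only member called lower in Braf Base medium than in Braf full medium at its start. Over the whole window Eomes averaged 0.540 in Braf Base medium, 0.586 in Braf full medium and 0.417 in EV. The ratio of Braf Base medium over Braf full medium there was 0.92 (95% interval 0.81 to 1.05), so the order held at the start window only. Its start window on chromosome 9 had 0.0640 in Braf Base medium, 0.423 in Braf full medium and 0.00913 in EV, from an estimated 8, 39 and 1 reads. Only Braf full medium was high in this window, at 46.4-fold over EV (95% interval 6.27 to 1500). Braf Base medium was at 0.151 of Braf full medium (95% interval 0.0642 to 0.345). The window stops short of the peak bin, and the fold over EV rests on 2 overlaps in EV. With 2 kb to each side, which takes in the peak, the log2 ratio of Braf full medium over EV was 1.86, against 2.81 as reported. The peak lay upstream of the printed promoter, 1.29 kb before the start, with 0.704 in Braf Base medium, 3.33 in Braf full medium and 0.502 in EV. The long noncoding RNA gene Gm33408 spans it. A smaller peak was thus present there in all 3 libraries, and it was broader and higher in Braf full medium. The tile centred 0.686 kb below the low end had 0.0741 in Braf Base medium, 0.843 in Braf full medium and 0.0201 in EV. Beyond the high end the gene was methylated in every library, and the highest tile had 3.59 in Braf Base medium, 2.81 in Braf full medium and 2.99 in EV. With windows of 0.5 kb to each side Eomes was called in no comparison, because they also miss the flank of the peak that the 1-kb window holds.

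Tbx3, which acts with Tbx2 in limb and mammary development, was covered heavily and alike in all 3 libraries. Its window averaged 0.750 in Braf Base medium, 0.697 in Braf full medium and 0.727 in EV. The ratio of Braf Base medium over EV was 1.03 (95% interval 0.936 to 1.14) and that of Braf full medium over EV was 0.959 (95% interval 0.862 to 1.06). Of its 25 tiles, 9 were over the minimum in every library, and the highest, inside the gene, had 6.25 in Braf Base medium, 5.01 in Braf full medium and 5.60 in EV. At the low end, EV was the highest library, with 0.0943 in Braf Base medium, 0.120 in Braf full medium and 0.205 in EV, a difference short of a call that turned with the window, since within 0.5 kb Braf full medium was called gained over EV (log2 ratio 1.60). The tile centred 0.034 kb below the low end was the 1 tile gained in Braf full medium over EV, at 0.176 in Braf full medium against 0.0100 in EV, with 0 in Braf Base medium. The tile centred 1.03 kb below it was the 1 tile lost in Braf full medium over EV, at 0.245 in Braf full medium against 0.693 in EV, with 0.378 in Braf Base medium.

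Tbx5, a heart and forelimb factor mutated in human Holt-Oram syndrome, was the only member with more tiles lost than gained in Braf Base medium over EV, at 3 lost and 0 gained of 100. The tile centred 1.72 kb before the high end had 0.393 in Braf Base medium, 0.255 in Braf full medium and 0.914 in EV. Both Braf libraries were lower than EV there, Braf Base medium at 0.430 of it (95% interval 0.233 to 0.733) and Braf full medium at 0.279 of it (95% interval 0.130 to 0.565). The next tile had 0.0593 in Braf Base medium, 0.0588 in Braf full medium and 0.201 in EV. A further 3 tiles gained in Braf full medium, each at 0.127. At the low end Braf Base medium and EV had no overlap and Braf full medium had 0.0980, below the minimum. The background within 1 Mb of Tbx5 was 2.81 times the genome-wide value in Braf Base medium, 1.54 times in Braf full medium and 4.41 times in EV, and around Tbx3 it was 2.86 times in Braf Base medium, 1.52 times in Braf full medium and 4.47 times in EV. Its part in the lower values near the Tbx5 high end was not tested.

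Tbx4, the hindlimb and lung counterpart of Tbx5, and Tbx21, which encodes T-bet, the master factor of type 1 helper T cells, were not called at their starts. The Tbx4 start had 0.0135 in Braf Base medium, 0.0624 in Braf full medium and 0.0137 in EV. Inside Tbx4 a tile centred 4.13 kb above the low end gained in both Braf libraries over EV, with 0.430 in Braf Base medium, 0.314 in Braf full medium and 0.0803 in EV. A tile near its high end went the other way, with 0.0963 in Braf Base medium, 0.265 in Braf full medium and 0.532 in EV. The Tbx21 start had 0.101 in Braf Base medium, 0.102 in Braf full medium and 0.0228 in EV, and both Braf libraries stayed below the coverage minimum. Braf Base medium was 4.43-fold above EV with an interval of 0.984 to 40.7, and Braf full medium 4.49-fold with an interval of 1.01 to 44.6.

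Over all 10 windows, 29 of 484 tiles gained in Braf Base medium over EV (5.99%) and 6 were lost (1.24%). Among the tiles of all protein-coding gene windows, 0.457% gained and 1.04% were lost. The share gained was thus above that of all gene windows and the share lost close to it. Tbx1, Tbx2 and Tbx15 held 7 of the gained tiles each, and neighbouring tiles are not independent. The genes were chosen with earlier results of these data known and all gene windows were not matched for CpGs, so enrichment was not tested. In Braf full medium over EV 37 tiles gained (7.64%) and 3 were lost (0.62%), against 3.14% and 0.451% of the tiles of all gene windows. With the genome-wide background of each library subtracted, 24 gained, against 0.728% of the tiles of all gene windows. In Braf Base medium over Braf full medium 10 gained (2.07%) and 15 were lost (3.10%), against 0.203% and 3.31%. The share lost was close to that of all gene windows, and no gene held more than 3 of the lost tiles. Tiles over the coverage minimum numbered 48 in Braf Base medium (9.9%), 59 in Braf full medium (12.2%) and 28 in EV (5.8%). Among the tiles of all protein-coding gene windows it was 4.7% in Braf Base medium, 8.3% in Braf full medium and 5.5% in EV. The EV share was thus close to that of all gene windows. Of the member tiles, 21 were over the minimum in all 3 libraries. Of these 21, 9 lay in Tbx3, 8 in Eomes and 3 in Tbx1.

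**Figure D3:**
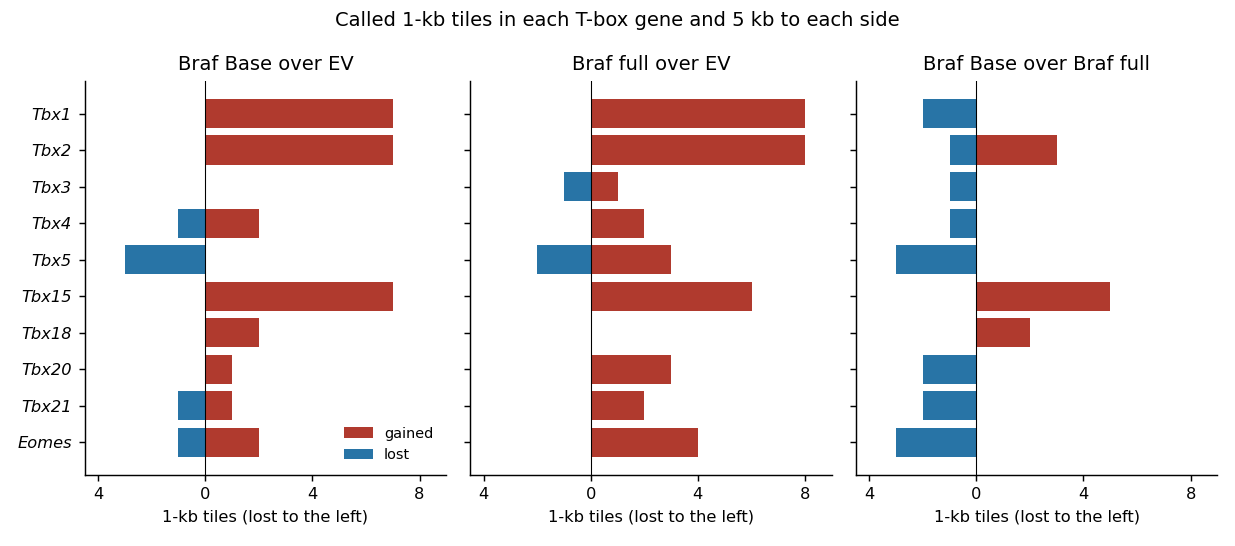
Number of 1-kb tiles called gained (right) or lost (left) in each T-box gene with 5 kb to each side, in the 3 comparisons. Gains over EV gather in Tbx1, Tbx2 and Tbx15 with 6 to 8 tiles each, Tbx5 has the most losses in Braf Base medium over EV with 3, and Tbx15, Tbx2 and Tbx18 hold all 10 tiles gained in Braf Base medium over Braf full medium.

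The median log2 ratio of the 15 member windows was 0.85 in Braf Base medium over EV, against 0.00 over all 28501 windows. In Braf full medium over EV it was 0.73 for the members and 0.70 for all windows, and in Braf Base medium over Braf full medium -0.18 and -0.65. The members' median was thus close to that of all windows in Braf full medium over EV. The windows called there ran from 1.31 for Tbx15 to 2.81 for Eomes. They lie above that median by the rule itself, since a call needs a log2 ratio of 1 or above.

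**Figure D4:**
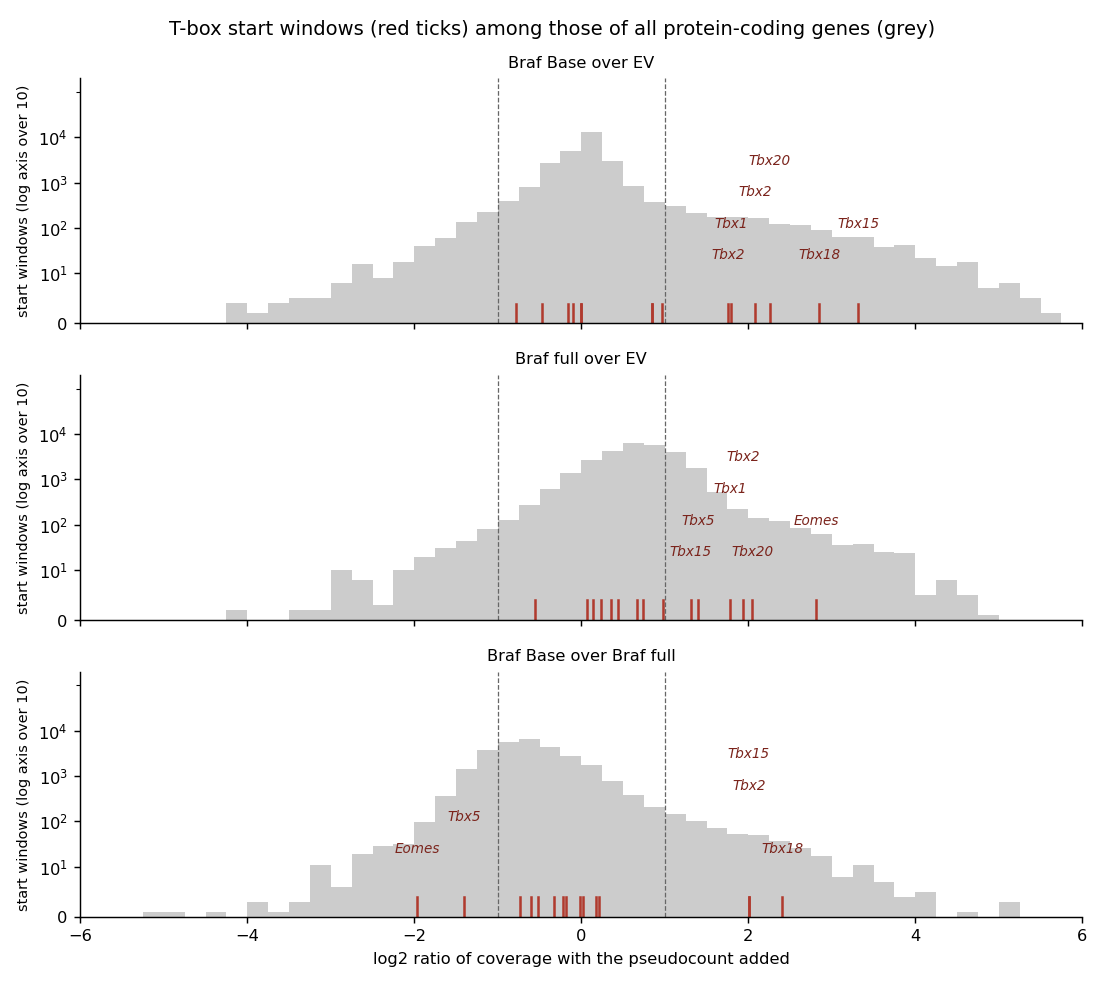
Log2 ratio of coverage in the T-box start or end windows (red ticks, named where beyond 1 or -1) over the histogram of 28501 windows of all protein-coding genes (grey, counts on an axis that is logarithmic above 10), for the 3 comparisons. Tbx15 reaches 3.32 in Braf Base medium over EV and Eomes 2.81 in Braf full medium over EV. Tbx5 passes the ratio in the comparisons with Braf full medium but not the coverage minimum.

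The other T-box genes on these chromosomes, T (Brachyury), Tbx6, Tbx10, Tbx19, Tbr1 and Mga, were read at their starts by the same rule. With 6 genes, their counts are too small to tell from the shares of all genes. In Braf Base medium over EV none of the 6 gained and Mga, a partner of Max, was lost, against 6.22% and 1.88% of all genes. Mga had 0.0303 in Braf Base medium, 0.111 in Braf full medium and 0.155 in EV. In Braf full medium over EV, Tbr1, a factor of cortical neurons and the closest relative of Eomes, was the 1 gain, and none was lost. Of all genes 7.82% gained and 0.886% were lost there. Tbr1 had 0.227 in Braf full medium and 0.0274 in EV at its start. Braf Base medium had 0.0606 at the Tbr1 start and was called lost against Braf full medium. In that comparison 2.24% of all genes gained and 4.35% were lost. The Tbr1 window as a whole had 0.550 in Braf Base medium, 0.384 in Braf full medium and 0.227 in EV. T, the founding member, had 0.00674 in Braf Base medium, 0.0802 in Braf full medium and no overlap in EV at its start, with no call. Of the 218 tiles of these 6 genes, 4 gained and 7 were lost in Braf Base medium over EV, against 0.457% and 1.04% of the tiles of all gene windows. Braf full medium over EV had 13 of them gained and 3 lost, against 3.14% and 0.451%, and in Braf Base medium over Braf full medium 3 gained and 10 were lost, against 0.203% and 3.31%.

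Of 34 genes that act with T-box factors or are controlled by them, 32 were on the chromosomes analysed. Of these, 11 gained and 1 was lost in Braf Base medium over EV, against 6.22% and 1.88% of all genes. The count in Braf full medium over EV was also 11 gained and 1 lost, against 7.82% and 0.886% of all genes. Both comparisons use the same EV library. Hand2, a heart and limb factor, had 0.946 in Braf Base medium and 0.650 in Braf full medium, against 0.0183 in EV. Gata3, the counterpart of T-bet in helper T cell choice, had 1.23 in Braf Base medium, 0.860 in Braf full medium and 0.0411 in EV. Fgf10, a limb bud growth factor downstream of Tbx4 and Tbx5, had 0.155 in Braf Base medium, 0.205 in Braf full medium and 0.0137 in EV. Pax1, a factor of the pharyngeal pouches, had 0.529 in Braf Base medium, 0.169 in Braf full medium and no overlap in EV. Cdkn2a, which Tbx2 and Tbx3 repress, had 0.835 in Braf Base medium and 0.860 in Braf full medium, against 0.146 in EV, at 1 of its starts. Its other start was also called gained over EV in both, with 0.239 in Braf Base medium, 0.236 in Braf full medium and 0.0730 in EV. Nppa, a cardiac target of Tbx5 and Tbx20, was the gene lost, with 0.00674 in Braf Base medium, 0.00891 in Braf full medium and 0.160 in EV. The others gained were Hand1, Fgf8, Foxc2, Wnt5a, Runx3 and Tlx2 in both comparisons. Of the genes named here, Pax1 gained and Tlx2 was lost in Braf Base medium over Braf full medium.

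Methylation at a gene start does not measure expression, so these libraries do not show whether the organoids kept their cell type. In Braf Base medium over EV, where 6.22% of all genes gained and 1.88% were lost, 1 of 11 markers of colon epithelium gained, Cdx1. Of 7 markers of fibroblasts and smooth muscle 2 gained and 1 was lost, of 5 immune markers none was called, and of 6 endothelial and neural markers 4 gained. Against EV, Braf full medium gained at 7.82% of all genes and lost at 0.886%, and Cdx1 again was the 1 epithelial gain. There 3 fibroblast and smooth muscle markers gained and 1 was lost, no immune marker was called, and 3 endothelial and neural markers gained. The part of a changed mix of cells in the T-box values was not tested.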

How the data were processed

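MBD-seq libraries were made from 100 to 200 ng of DNA sheared to 200 to 400 bp and read as single 50-bp reads, per the labels' protocols. The aligner Bowtie2 and the build mm10 stand per the submitters' processing notes. The step that turned reads into bins was not given in the sources used here. Bins carry log2 values, as deposited by the authors. Raising 2 to each value gave 0.0153, the value of an empty bin, plus whole multiples of a step (0.0371 in Braf Base medium, 0.0490 in Braf full medium, 0.0502 in EV) in 100% of bins, within 0.001 of a step. Each multiple was read as 1 overlap of a read with the bin, and overlaps times the step as coverage. Lone runs of 2 or 3 bins gave 2.48, 2.42 and 2.49 overlaps per read, from which reads were estimated.

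Gene spans, starts and promoter sequences came from RefSeq tables on GRCm38.p6, the assembly mm10 stands for. Starts were used for 16457 of 20665 protein-coding genes and both ends for 4208. As pseudocount served the mean bin coverage of all 3 libraries together, and 2 times that value as minimum. Background is the mean of the 10-kb blocks between percentiles 25 and 75, taken genome-wide or within 1 Mb. Intervals are exact (Clopper-Pearson) 95% intervals on estimated reads. For them reads were rounded to whole numbers, with 1 as the least where any overlap was present. Folds use the overlaps without rounding, so at few reads an interval is not centred on its fold. Reads are not independent molecules, so the intervals cover counting error only. A fold against 0 overlaps is a lower bound against 3 reads in the window. Calls were tested on simulated data, but only in windows with more EV overlaps than any called member window had. No difference in background was simulated. That test thus cannot speak for calls at low coverage such as those of the members. Python 3.11.15, numpy 2.4.6, pandas 2.3.3 and scipy 1.17.1 were used.

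Genes named are the 10 members, other T-box genes, called genes of a list of T-box partners and targets, and marker lists. A result for 1 gene of the partner list is not reported here. The T-box genes and the lists were chosen with earlier results of these data known, and support nothing by themselves. The alternatives tried were equal totals, background subtraction, another pseudocount, minimum, window, tile or gene span and, chosen after seeing the data, both ends of every gene.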

Additional observations from a re-analysis of the deposited data

How the results depend on the processing

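No paired analysis was possible because each group held 1 library. The count of T-box genes gained in Braf Base medium over EV was 5 as reported, where 6.22% of all genes gained. It was 3 with a pseudocount 4 times as large (3.93% of all genes) or a minimum of 5 times the mean (4.44%). Tbx2 and Tbx20 dropped out under both. With equal totals the count was 6 (7.25% of all genes), with Tbx21 added. In Braf full medium over EV it was 5 as reported (7.82% of all genes). It was 2 with that pseudocount (2.82%), that minimum (3.34%) or windows of 2 kb to each side (5.69%). Tbx15 there was called under 1 of 7 alternatives only, while Tbx15 and Tbx18 in Braf Base medium over EV and over Braf full medium were called under all 7. Tiles gained in Braf full medium over EV were 37 as reported, against 3.14% of the tiles of all gene windows. They were 22 with equal totals (0.721%), local background subtracted (0.679%) or tiles of 2 kb (1.59%, with 249 member tiles). With genome-wide background subtracted they were 24 (0.728%), and 18 with that pseudocount (0.243%) or minimum (0.296%). Tiles gained in Braf Base medium over Braf full medium were 10 as reported (0.203% of the tiles of all gene windows). They were 29 with equal totals (1.64%), and 6 with that pseudocount (0.0797%) or tiles of 2 kb (0.166%). Tbx3 was called lost in Braf full medium over EV with equal totals (log2 ratio -1.04) or local background subtracted (-1.12). With windows of 0.5 kb to each side the Tbx3 low end was called the other way, gained in Braf full medium over EV (1.60) and lost in Braf Base medium over Braf full medium (-1.79). Tbx21 was then also gained in Braf full medium over EV (1.25) and lost in Braf Base medium over Braf full medium (-1.01). No window called as reported changed sign under an alternative. Equal totals would shift log2 coverage relative to EV by 0.19 in Braf Base medium and -0.70 in Braf full medium. Why the authors' scaling differs from equal totals was not tested. Windows with 1 to 3 estimated reads in EV have wide intervals, which sets the limit of depth.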

Other observations

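By Euclidean distance of the log2 coverages over the 3 libraries, the start windows most like the Tbx15 low end (0.717 in Braf Base medium, 0.134 in Braf full medium and 0.0183 in EV) were those of Ltbp4, at a distance of 0.17, Tmem121, at 0.30, and St8sia1, at 0.33. Ltbp4 had 0.70 in Braf Base medium, 0.116 in Braf full medium and 0.0137 in EV. Tmem121 had 0.589 in Braf Base medium, 0.134 in Braf full medium and 0.0274 in EV. St8sia1 had 0.872 in Braf Base medium, 0.147 in Braf full medium and 0.00913 in EV.

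Long noncoding RNA genes lie beside or across several members, so tiles there cannot be assigned to the T-box gene alone. Gm33408 spans the peak upstream of Eomes, Gm33460 the tiles beyond its high end that were covered in all 3 libraries, Gm35369 the starts of Tbx1 and the gained tile upstream, and Tbx3os2 the covered tiles beyond the Tbx3 high end. Gm38468 and Gm46817 lie at the Tbx15 low end. The tile described below the Tbx2 low end lies within 2610027K06Rik, and the Tbx3 low end with its called tiles within Tbx3os1.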
